A study of Mus musculus with 12 samples.

Results

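The genes described here are 49 genes of DNA replication and nucleotide supply in microglia of the mouse, macrophages that live in the brain. They were taken by gene symbol from the deposited table of 46262 genes and grouped by role into helicase (MCM and GINS), origin licensing, polymerase and clamp loader, nucleotide supply, DNA methylation and chromatin, and cyclin E and E2F genes. Each symbol matched 1 gene, and all 49 were among the 12419 genes tested, which had at least 1 TPM (transcripts per 1000000) in at least 3 of 12 libraries. The cells were wild-type (WT) primary murine microglia from mixed glial cultures of forebrain or cerebellum, kept for 24 hours with 20 ng/ml CSF-1 or with 100 ng/ml IL-34. The 4 groups were forebrain CSF-1, forebrain IL-34, cerebellum CSF-1 and cerebellum IL-34, with 3 libraries each from independent cultures. CSF-1 and IL-34 are both ligands of the receptor Csf1r, on which microglia depend. The doses differed between the ligands and no group without ligand is analysed here, so each comparison is of 1 ligand at its dose with the other. The deposited table is named for neonatal microglia, and no source used here states the age, sex or strain of the mice. One label, the protocol for extraction, describes human material, although every other label is of mouse.

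Before a cell copies its DNA, the origin recognition complex, Cdc6 and Cdt1 load the ring of MCM proteins onto origins, and Cdc45 and the GINS complex then join the ring to form the active helicase. Primase, the DNA polymerases and the Pcna clamp copy the opened strands, while ribonucleotide reductase and its partners supply the nucleotides, and chromatin assembly and maintenance methylation restore the packaging and the methyl marks. Many of these genes are transcribed in late G1 and S phase by E2F factors, which cyclin E activity releases from pocket proteins, and Csf1r ligands are known as mitogens of macrophages and microglia.

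The libraries held 11740 to 11904 genes at 1 TPM or more. Libraries of the cerebellum IL-34 group stood apart: transcripts under 600 nt took 2.58, 3.31 and 0.947% of their TPM, against 0.0269 to 0.555% in the other 9 libraries. Some results that rest on this group, among them the counts of called genes, are therefore also given from transcripts of 1000 nt or more. The per-role sums, ratios between partners, counts of groups without overlap and most values of single genes are from all transcripts. All 12 microglial markers listed were present, and their summed level was 10245 to 10909 TPM over the 12 libraries, although the homeostatic markers Tmem119 (7.15 to 20.4 TPM) and P2ry12 (7.10 to 11.7 TPM) were low. The 10 astrocyte markers summed to 30.5 to 33.9 TPM in forebrain and 15.6 to 20.8 TPM in cerebellum, and 7 of them reached 1 TPM in at least 3 libraries. Oligodendrocyte lineage markers summed to 125 to 173 TPM, neuronal markers to at most 4.75 TPM with Neurod1 at 0 throughout, and progenitor markers to at most 6.78 TPM. The 8 mesenchymal and mural markers summed to 11.5 to 19.0 TPM in forebrain and 4.73 to 7.83 TPM in cerebellum. The 6 endothelial markers summed to 7.04 to 12.9 TPM with Cldn5 at 0. In bulk libraries such as these, fewer cycling cells and less RNA of these genes per cell cannot be told apart.

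The replication genes were moderately expressed, with a median level of 15.1 TPM against 19.8 TPM for all genes tested. The clamp Pcna, which tethers polymerases to DNA, was the only member above 100 TPM, at 210 TPM over the 12 libraries. Mcm6 followed at 99.1 TPM, the histone mRNA binding protein Slbp at 95.9 TPM and the clamp loader subunit Rfc2 at 94.1 TPM. At the other end, 22 members averaged under 10 TPM, with E2f2 at 1.54, Pole at 1.64, Ung at 1.65 and Orc1 at 1.76 TPM. Members at 1 TPM or more in all 12 libraries numbered 46, the others being E2f8, Ung and Pole.

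Averaged over both regions, 27 of the 49 genes were lower under IL-34 than under CSF-1 and none was higher (limma, adjusted p under 0.05). Over all genes tested, 10.7% were called lower and 2.73% higher. The lower genes included Mcm2 to Mcm7, Cdt1, Cdc6, primase Prim1, the ribonucleotide reductase subunit Rrm2, the methylation factor Uhrf1, both large chromatin assembly subunits Chaf1a and Chaf1b, and all 5 cyclin E and E2F genes listed. The median log2 difference, IL-34 minus CSF-1 on the log2(TPM + 1) scale, was -0.30 for the members and -0.07 for all genes tested, and 46 of 49 members were negative. Library by library, the median difference of the members from the CSF-1 mean of the same region was -0.26, -0.35 and -0.32 in forebrain IL-34 and -0.31, -0.31 and -0.20 in cerebellum IL-34. The same median over all genes tested was 0.00, -0.06 and -0.07 in forebrain IL-34 and -0.11, -0.12 and -0.07 in cerebellum IL-34. All 6 IL-34 libraries thus lay below the CSF-1 level for these genes by more than for the typical gene. The count fell to 15 without forebrain IL-34 replicate 2, to 16 with median-of-ratios scaling and to 14 with a covariate for the length floor of each library, and rose to 38 with transcripts of 1000 nt or more. In that last setting the share of all genes called lower also rose, to 21.4%. Heat shock and dissociation genes moved with the ligand too, with 7 of 14 called lower and sums of 3924 to 4222 TPM under CSF-1 against 3360 to 3717 TPM under IL-34, and their part in the result was not tested. Of the cell type markers listed, 4 genes were called for the mean ligand difference, all lower: the progenitor marker Nes (-0.52, adjusted p = 0.012), Cspg4 (-0.51, adjusted p = 0.00222), of the oligodendrocyte lineage list, and the microglial markers Itgam (-0.32, adjusted p = 0.00484) and Cx3cr1 (-0.31, adjusted p = 0.0309). The other members of these lists did not go 1 way. Of 6 oligodendrocyte lineage markers tested, 4 were negative and 2 positive. Olig1 averaged 1.66 and 1.81 TPM in forebrain and 0.481 and 0.510 TPM in cerebellum under CSF-1 and IL-34. Of 12 microglial markers, 5 were negative and 7 positive. The 7 progenitor markers, of which 2 were tested, summed to 4.95 to 6.78 TPM under CSF-1 and 3.04 to 5.22 TPM under IL-34 in forebrain, and to 3.69 to 4.71 and 1.80 to 2.59 TPM in cerebellum, and the part of these markers in the result was not tested.

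**Figure D1:**
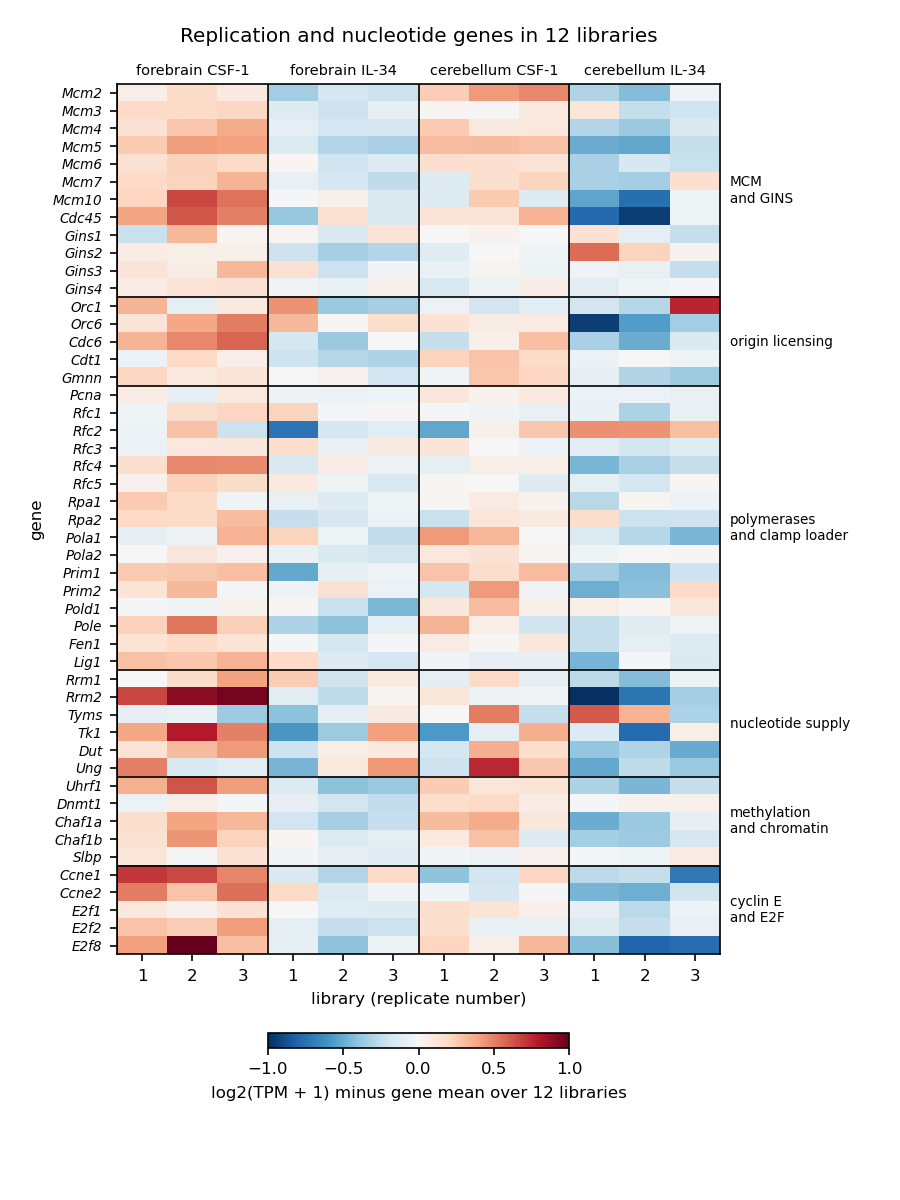
Log2(TPM + 1) of each of the 49 genes (rows, grouped by role) in each of the 12 libraries (columns, grouped by region and ligand), minus the gene's mean over the 12 libraries; colours saturate at 1 log2 unit. Most rows are red in the CSF-1 columns and blue in the IL-34 columns, with Gins2 and Rfc2 red in cerebellum IL-34.

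The promoters of 4 members are shown as examples: Mcm5, Rrm2 and Uhrf1, which were lower under IL-34 within both regions, and Pcna, the most abundant member, which did not pass the test. The windows are from RefSeq (GRCm38.p6) and run from 250 bases before to 50 after the start of transcription, 5' to 3' on the gene's strand. Capitals mark matches, on either strand, to the E2F motif in the form TTCCCGC, the second form TTGGCGC, the further form TTCGCGC or the last form TTGCCGC. They also mark the box with the letters CCAAT, the site of NF-Y, and overlapping matches run together. Uhrf1 has 2 start sites in the table.
Mcm5 (chr8:75109259-75109558, plus strand): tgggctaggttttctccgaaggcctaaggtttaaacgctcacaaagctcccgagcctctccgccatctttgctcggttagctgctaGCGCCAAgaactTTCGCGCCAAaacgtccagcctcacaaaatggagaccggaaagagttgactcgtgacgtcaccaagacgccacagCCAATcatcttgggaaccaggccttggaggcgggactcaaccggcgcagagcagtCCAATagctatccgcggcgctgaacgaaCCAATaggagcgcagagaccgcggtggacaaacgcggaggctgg
Rrm2 (chr12:24708004-24708303, plus strand): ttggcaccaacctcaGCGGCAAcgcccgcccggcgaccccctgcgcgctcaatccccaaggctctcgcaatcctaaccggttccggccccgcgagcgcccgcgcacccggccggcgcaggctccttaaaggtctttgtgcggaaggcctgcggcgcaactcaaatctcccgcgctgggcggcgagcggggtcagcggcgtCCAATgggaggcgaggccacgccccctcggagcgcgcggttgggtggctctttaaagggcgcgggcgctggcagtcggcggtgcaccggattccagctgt
Uhrf1 (chr17:56303087-56303386, plus strand): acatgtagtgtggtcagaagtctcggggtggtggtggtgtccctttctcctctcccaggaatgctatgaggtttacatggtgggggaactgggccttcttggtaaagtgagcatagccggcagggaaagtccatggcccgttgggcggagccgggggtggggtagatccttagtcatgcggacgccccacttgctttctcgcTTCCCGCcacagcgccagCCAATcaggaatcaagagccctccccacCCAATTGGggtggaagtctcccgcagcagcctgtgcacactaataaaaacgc
Uhrf1 (chr17:56304063-56304362, plus strand): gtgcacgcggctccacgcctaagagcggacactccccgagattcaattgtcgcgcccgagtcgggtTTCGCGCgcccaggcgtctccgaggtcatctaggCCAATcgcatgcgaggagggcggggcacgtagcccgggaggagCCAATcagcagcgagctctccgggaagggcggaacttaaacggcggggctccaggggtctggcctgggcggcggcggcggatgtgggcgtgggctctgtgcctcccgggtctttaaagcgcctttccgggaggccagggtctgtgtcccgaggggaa
Pcna (chr2:132253131-132253430, minus strand): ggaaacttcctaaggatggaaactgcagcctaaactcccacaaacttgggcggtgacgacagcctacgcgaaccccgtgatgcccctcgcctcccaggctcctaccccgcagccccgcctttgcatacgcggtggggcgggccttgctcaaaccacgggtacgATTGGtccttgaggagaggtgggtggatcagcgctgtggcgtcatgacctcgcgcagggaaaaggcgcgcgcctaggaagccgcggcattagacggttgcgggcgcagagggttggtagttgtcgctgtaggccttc
The Mcm5 window held 3 E2F and 3 CCAAT matches, and the first E2F match lies close to an overlapping pair. The Rrm2 window held 1 of each, each Uhrf1 window held 1 E2F match beside CCAAT boxes, and the Pcna window held 1 CCAAT box and no E2F match as spelled here.

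Of the 49 members, 40 had a promoter entry, in 48 windows. An E2F motif was found for 25 of these 40 (62.5%, exact 95% binomial interval 45.8 to 77.3%, which covers counting error only), against 19.8% of the 8996 tested genes with an entry and 10.9% of all 27025 genes of the table. A CCAAT box was found for 62.5% of the 40, against 43.1% of tested genes. The CHR element of mitotic genes (TTTGAA or TTCGAA, either strand) was found for 22.5%, against 16.5% of tested genes. Among members called lower for the mean ligand difference 16 of 23 held an E2F match, and among the others 9 of 17, so that matches were found on both sides. Mcm6 held 5 E2F matches in its window. A match is a description of the letters in the window and not of binding.

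The helicase gave the largest number of called genes of any role, but not the largest share. Its share was 66.7%, against 100% for cyclin E and E2F and 80% each for origin licensing and for methylation and chromatin. Over all genes tested it was 10.7%. Of 12 MCM and GINS genes, 8 were lower under IL-34: Mcm2 to Mcm7 without exception, Mcm10, which acts when the helicase is activated, and Cdc45. No GINS gene was called for the mean ligand difference. Mcm5 (chr8:75109569-75128439), a subunit of the MCM ring, stood at 21.2, 23.8 and 23.5 TPM in the 3 forebrain CSF-1 libraries (replicates 1 to 3, the order used throughout) and at 15.9, 14.2 and 13.8 TPM in forebrain IL-34. In cerebellum it stood at 22, 22 and 21.7 TPM under CSF-1 and at 12.1, 12 and 14.8 TPM under IL-34. Every IL-34 library was below every CSF-1 library of its region, the means being 64.1% of the CSF-1 mean in forebrain and 59.1% in cerebellum. The mean log2 difference was -0.66 (SE 0.06, adjusted p = 0.000206, limma), and Mcm5 was also lower within forebrain (adjusted p = 0.00927) and within cerebellum (adjusted p = 0.00203).

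Mcm6, the most abundant ring subunit, was at 109, 116 and 113 TPM under CSF-1 and 99.5, 85.6 and 89.4 TPM under IL-34 in forebrain. Its cerebellar values were 110, 110 and 108 TPM under CSF-1 and 78.1, 87.6 and 84.0 TPM under IL-34. The ligand groups did not overlap in either region, and the log2 difference of -0.34 (adjusted p = 0.00105) was smaller than that of Mcm5. Mcm4 was at 26.4, 29.1 and 31.0 TPM against 22.3, 20.9 and 21.1 TPM in forebrain, and at 28.8, 25.4 and 25.6 TPM against 19.2, 18.2 and 21.4 TPM in cerebellum. It was lower in both regions without overlap (log2 difference -0.42, adjusted p = 0.00185), and it passed within forebrain (adjusted p = 0.0453) and within cerebellum (adjusted p = 0.0132). Mcm2 was at 30.6, 33.5 and 31.5 TPM against 22.9, 26.1 and 25.3 TPM in forebrain. In cerebellum Mcm2 was at 34.9, 39.7 and 41.3 TPM under CSF-1, above every forebrain library, and at 23.6, 21.5 and 28.6 TPM under IL-34. Its ligand difference of -0.50 (adjusted p = 0.00209) was -0.35 in forebrain (adjusted p = 0.133) and -0.64 in cerebellum (adjusted p = 0.006). In transcripts of 1000 nt or more the regions were alike. There Mcm2 was at 30.2 ± 1.18 TPM in forebrain CSF-1 and 31.1 ± 2.06 TPM in cerebellum CSF-1 (SD, n = 3). Under IL-34 it was at 21.0 ± 1.70 and 22.5 ± 0.900 TPM, and it was called in forebrain too.

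The other called helicase genes were Mcm3 (-0.24, adjusted p = 0.0251), Mcm7 (-0.34, adjusted p = 0.0417), Mcm10 (-0.48, adjusted p = 0.0444) and Cdc45 (-0.71, adjusted p = 0.0141). Cdc45 was at 5.16 ± 0.495 TPM in forebrain CSF-1 and 3.02 ± 0.753 TPM in forebrain IL-34 (SD, n = 3), and at 4.0 ± 0.442 and 1.99 ± 1.05 TPM in cerebellum. Calls of Mcm3, Mcm7 and Mcm10 passed in 7, 3 and 2 of the 12 fits that left out 1 library, whereas Mcm2, Mcm4, Mcm5, Mcm6 and Cdc45 passed in all 12. Exons of Mcm7 overlap Cops6 and Ap4m1, and those of Cdc45 overlap Ufd1, on the opposite strand, and the library kit does not mark strand, so reads of such partners cannot be told apart. The 4 GINS genes had log2 differences of -0.15 (Gins3), -0.08 (Gins4), -0.05 (Gins1) and -0.01 (Gins2).

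Gins2 differed from the other helicase genes in cerebellum. In forebrain it was at 11.8, 11.6 and 11.6 TPM under CSF-1 and 9.49, 8.64 and 8.90 TPM under IL-34, while in cerebellum it was at 10.1, 11.1 and 10.8 TPM under CSF-1 and 16.9, 13.2 and 11.4 TPM under IL-34. All forebrain IL-34 libraries were below, and all cerebellum IL-34 libraries above, the CSF-1 libraries of their region. The difference between the regions was 0.67 (SE 0.16) with an adjusted p of 0.201, and passed only without cerebellum IL-34 replicate 3. In transcripts of 1000 nt or more, Gins2 was at 10.7 ± 0.492 TPM in cerebellum CSF-1 and 10.4 ± 1.12 TPM in cerebellum IL-34, and 67.3% of its exon bases are shared with Gse1 on the opposite strand.

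Genes of origin licensing were lower in 4 of 5 cases, Orc1 being the exception at 0.01 (adjusted p = 0.981). Cdt1 (chr8:122568015-122573554), which loads the MCM ring, was at 40.5, 48.6 and 44.2 TPM under CSF-1 and 36.3, 34.5 and 33.9 TPM under IL-34 in forebrain. In cerebellum it was at 49.4, 51.7 and 48.0 TPM under CSF-1 and 40.4, 41.9 and 40.9 TPM under IL-34. No ligand groups overlapped, and Cdt1 was lower for the mean (-0.30, adjusted p = 0.00324), within forebrain (-0.34, adjusted p = 0.0412) and within cerebellum (-0.27, adjusted p = 0.0299). Geminin, Gmnn, which binds and inhibits Cdt1, was at 42.4, 39.0 and 39.8 TPM against 36.5, 37.5 and 31.8 TPM in forebrain. Its cerebellar values were 35.3, 44.2 and 42.3 TPM under CSF-1 and 33.9, 29.4 and 28.2 TPM under IL-34. The loader and its inhibitor were therefore both lower under IL-34, Gmnn by -0.30 (adjusted p = 0.0209), although 64.7% of Gmnn TPM lay in transcripts under 1000 nt and its call was lost without them.

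Cdc6, the ATPase that works with Cdt1, was at 3.50, 3.94 and 4.30 TPM under CSF-1 and 2.13, 1.74 and 2.55 TPM under IL-34 in forebrain. In cerebellum it was at 2.02, 2.66 and 3.37 TPM under CSF-1 and 1.83, 1.51 and 2.20 TPM under IL-34. The forebrain groups were apart and the cerebellar groups overlapped, with a mean difference of -0.51 (adjusted p = 0.0189). Orc6, a subunit of the origin recognition complex, showed the other order. It was at 22.3, 26.9 and 29.3 TPM against 25.7, 20.5 and 23.1 TPM in forebrain, where the groups overlapped, and at 22.5, 21.4 and 21.5 TPM against 10.1, 13.4 and 15.7 TPM in cerebellum, where they did not. The mean difference was -0.44 (adjusted p = 0.0186), and the difference between the regions, -0.55, did not pass (adjusted p = 0.347). The calls of Cdc6 and Orc6 were lost without forebrain IL-34 replicate 2, and that of Gmnn without forebrain IL-34 replicate 3, cerebellum CSF-1 replicate 2 or cerebellum IL-34 replicate 2. Exons of Orc6 overlap those of Vps35, a gene at 337 TPM on the opposite strand.

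Among the 16 polymerase and clamp loader genes 4 were lower, Prim1, Rfc4, Fen1 and Pole. Prim1 (chr10:128015168-128030037), the catalytic subunit of primase, was at 11.4, 11.5 and 11.8 TPM under CSF-1 and 6.27, 8.82 and 9.09 TPM under IL-34 in forebrain. In cerebellum it was at 11.7, 10.8 and 11.9 TPM under CSF-1 and 7.27, 6.71 and 7.99 TPM under IL-34. All CSF-1 libraries of both regions were above all IL-34 libraries, and the log2 difference was -0.54 (SE 0.09, adjusted p = 0.00346). The clamp loader subunit Rfc4 was at 22.8, 28.8 and 28.6 TPM against 18.2, 21.7 and 19.6 TPM in forebrain. Its cerebellar values were 19.0, 21.2 and 21.2 TPM against 14.6, 16.1 and 17.2 TPM. It was lower under IL-34 by -0.38 (adjusted p = 0.00926), without overlap in either region, and shares 12.7% of its exon bases with Eif4a2 on the opposite strand.

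Fen1, the nuclease that trims Okazaki fragments, was at 37.5, 39.2 and 37.6 TPM under CSF-1 and 33.5, 30.1 and 33.6 TPM under IL-34 in forebrain. In cerebellum Fen1 was at 36.2, 34.3 and 36.9 TPM under CSF-1 and 28.7, 32.0 and 30.9 TPM under IL-34. The decrease was small and free of overlap in both regions (-0.22, adjusted p = 0.0112), and 78.8% of its exon bases are shared with Gm10143, a gene at 2.72 TPM on the opposite strand. Pole, the catalytic subunit of the leading strand polymerase, was at 2.04, 2.76 and 2.07 TPM against 1.09, 0.957 and 1.44 TPM in forebrain, and at 2.28, 1.71 and 1.26 TPM against 1.19, 1.39 and 1.52 TPM in cerebellum. Its mean difference of -0.40 only just passed (adjusted p = 0.0499), and it passed in 1 of the 12 fits that left out 1 library.

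The other 12 genes of this role did not pass, with log2 differences between -0.31 (Pola1, adjusted p = 0.112) and 0.06 (Rfc2, adjusted p = 0.821). Pcna was at 221, 198 and 225 TPM against 202, 202 and 203 TPM in forebrain, and at 226, 215 and 225 TPM against 201, 201 and 199 TPM in cerebellum. The cerebellar groups were apart, the forebrain groups overlapped through CSF-1 replicate 2, and the mean difference was -0.11 (adjusted p = 0.0591). It passed in transcripts of 1000 nt or more. Rfc2 was at 88.0, 112 and 78.6 TPM under CSF-1 and 54.3, 80.8 and 84.4 TPM under IL-34 in forebrain, and at 63.4, 94.4 and 110 TPM and 126, 125 and 112 TPM in cerebellum. Of its TPM, 87.3% lay in transcripts under 1000 nt. In longer transcripts Rfc2 was at 13.4 ± 3.00 TPM in cerebellum CSF-1 and 8.05 ± 2.30 TPM in cerebellum IL-34, the opposite order, and its exons overlap those of Lat2, a gene at 212 TPM, on the other strand.

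For nucleotide supply, 2 of 6 genes were lower under IL-34, Rrm2 and Dut. Rrm2 (chr12:24708241-24714146), the small subunit of ribonucleotide reductase, was at 17.3, 20.4 and 21.3 TPM in forebrain CSF-1 and 9.64, 8.67 and 10.7 TPM in forebrain IL-34. In cerebellum it was at 11.5, 10.1 and 10.3 TPM under CSF-1 and 4.25, 5.93 and 8.11 TPM under IL-34. IL-34 means were 49% of the CSF-1 mean in forebrain and 57.2% in cerebellum, with no overlap in either. The log2 difference was -0.85 (SE 0.12, adjusted p = 0.00166), and Rrm2 passed within forebrain (-0.96, adjusted p = 0.0253) and within cerebellum (-0.75, adjusted p = 0.0204). Dut, which removes dUTP, was at 8.60, 9.92 and 10.7 TPM against 6.58, 8.18 and 8.37 TPM in forebrain. Its cerebellar values were 6.74, 10.3 and 8.83 TPM against 5.69, 6.10 and 5.18 TPM. It was lower without overlap in both regions (-0.41, adjusted p = 0.0251), a call that was lost without forebrain CSF-1 replicate 2 or 3 or cerebellum CSF-1 replicate 2 or 3.

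The other 4 genes of nucleotide supply did not pass the test. The large subunit Rrm1 had a difference of -0.20 (adjusted p = 0.231) and the salvage kinase Tk1 one of -0.46 (adjusted p = 0.177). Thymidylate synthase Tyms was at 0.08 (adjusted p = 0.794) and the uracil glycosylase Ung at -0.35 (adjusted p = 0.274). The groups of Tyms, Tk1 and Rrm1 overlapped in both regions. In transcripts of 1000 nt or more, Tyms, Tk1, Rrm1 and Ung were called lower as well. The share of TPM in shorter transcripts was 24.2% for Tyms and 34.4% for Tk1.

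Of the methylation and chromatin genes, 4 of 5 were lower. Uhrf1 (chr17:56303321-56323486), which recognises hemimethylated DNA and recruits Dnmt1, was at 11.4, 14 and 12 TPM under CSF-1 and 7.83, 6.30 and 6.52 TPM under IL-34 in forebrain. In cerebellum it was at 10.6, 9.56 and 9.66 TPM under CSF-1 and 6.84, 6.09 and 7.26 TPM under IL-34. The 6 IL-34 libraries all lay below the 6 CSF-1 libraries, with a log2 difference of -0.64 (SE 0.08, adjusted p = 0.000721). The maintenance methyltransferase Dnmt1 changed little by comparison, at 45.8, 50.1 and 47.1 TPM against 44.9, 42.0 and 40.0 TPM in forebrain. In cerebellum Dnmt1 was at 53.9, 55.0 and 50.4 TPM against 47.4, 48.8 and 49.2 TPM. Its difference of -0.15 passed (adjusted p = 0.0448), but in 3 of the 12 fits that left out 1 library and not with median-of-ratios scaling.

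Chaf1a, the large subunit of the CAF-1 complex that deposits histones behind the fork, was at 5.36, 6.41 and 6.09 TPM against 3.93, 3.49 and 3.79 TPM in forebrain. In cerebellum Chaf1a was at 6.03, 6.31 and 5.09 TPM against 2.99, 3.35 and 4.33 TPM. Its partner Chaf1b was at 10.9, 13.5 and 11.5 TPM against 9.86, 8.77 and 9.01 TPM in forebrain, and at 10.5, 12.1 and 8.82 TPM against 7.47, 7.36 and 8.56 TPM in cerebellum. Both subunits were lower in both regions without overlap, Chaf1a by -0.57 (adjusted p = 0.00346) and Chaf1b by -0.36 (adjusted p = 0.0194), the latter not without forebrain IL-34 replicate 2. Chaf1a shares 52.5% of its exon bases with Ubxn6, a gene at 50.04 TPM on the opposite strand. Slbp, which binds histone mRNA, did not pass (-0.07, adjusted p = 0.292), at 102 ± 5.86 and 90.8 ± 3.01 TPM in forebrain and 94.8 ± 3.39 and 96.4 ± 4.63 TPM in cerebellum under CSF-1 and IL-34 (SD, n = 3).

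All 5 cyclin E and E2F genes were lower. E2f8 (chr7:48866429-48881596), an atypical E2F that represses E2F targets, was at 3.10, 6.22 and 2.81 TPM under CSF-1 and 1.88, 1.33 and 1.98 TPM under IL-34 in forebrain. In cerebellum it was at 2.58, 2.24 and 2.86 TPM under CSF-1 and 1.30, 0.780 and 0.818 TPM under IL-34. Its groups did not overlap in either region, with forebrain CSF-1 replicate 2 far above the other libraries, and the difference was -0.85 (SE 0.16, adjusted p = 0.00803). E2f1, an activator E2F, was at 25.2, 24.1 and 26 TPM against 23.3, 21.5 and 21.3 TPM in forebrain. In cerebellum E2f1 was at 26.6, 25.8 and 24.3 TPM against 22, 19.3 and 22.6 TPM. The ligand groups were apart in both regions, by a small difference of -0.22 (adjusted p = 0.0222), and E2f2, another activator, differed by -0.33 (adjusted p = 0.0408).

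Cyclin E1, Ccne1, the Cdk2 partner that acts at S phase entry, was at 6.31, 6.06 and 5.27 TPM under CSF-1 and 3.06, 2.65 and 4.12 TPM under IL-34 in forebrain. Its cerebellar values were 2.38, 2.92 and 4.18 TPM under CSF-1 and 2.72, 2.79 and 1.72 TPM under IL-34. The forebrain CSF-1 libraries stood above all the others, and the cerebellar ligand groups overlapped. In transcripts of 1000 nt or more, Ccne1 was at 2.70 ± 0.284 TPM in cerebellum CSF-1 and 1.92 ± 0.338 TPM in cerebellum IL-34 (SD, n = 3). It was called lower within cerebellum there. Cyclin E2, Ccne2, was at 7.41, 6.20 and 7.68 TPM against 5.75, 4.37 and 4.76 TPM in forebrain, and at 4.79, 4.25 and 4.83 TPM against 3.28, 3.22 and 4.16 TPM in cerebellum, apart in both regions. The mean differences were -0.49 for Ccne1 (adjusted p = 0.0385) and -0.38 for Ccne2 (adjusted p = 0.0217), and 17.4% of Ccne2 exon bases are shared with Ints8 on the opposite strand. Calls of Ccne1, Ccne2, E2f1 and E2f2 passed in 2, 8, 8 and 2 of the 12 fits that left out 1 library, and that of E2f8 in all 12.

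**Figure D2:**
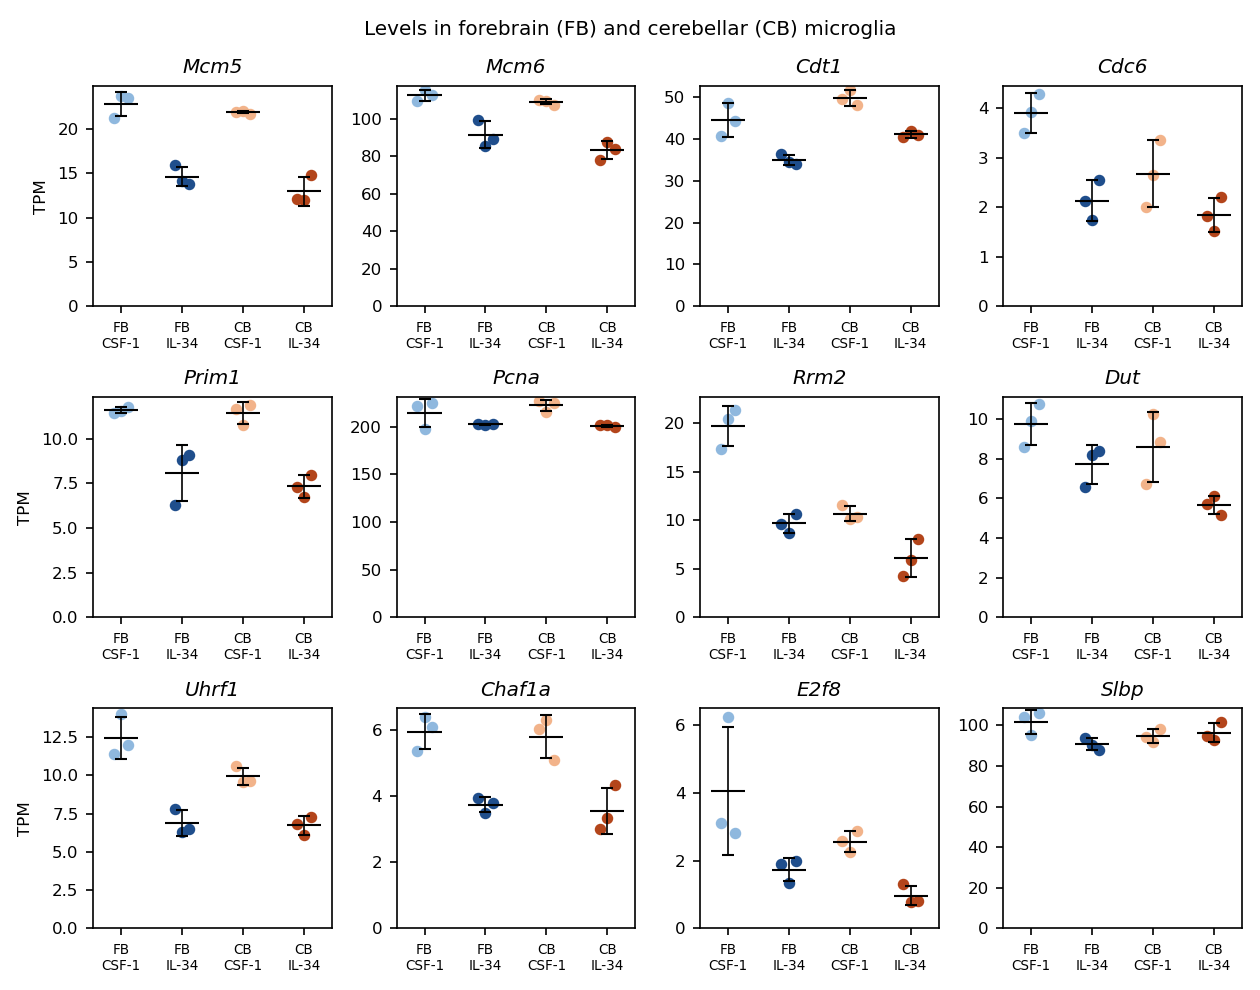
TPM of 12 members in each library; points are libraries, horizontal lines the mean and error bars the SD of 3 libraries, for forebrain (FB) and cerebellum (CB) under CSF-1 and IL-34, with axes from 0. Mcm5, Rrm2, Uhrf1 and Chaf1a sit lower under IL-34 in both regions, while Pcna and Slbp stay near their CSF-1 levels.

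Summed TPM described each role as a whole, with no test. MCM and GINS genes summed to 334 ± 11.9 TPM in forebrain CSF-1 and 264 ± 9.52 TPM in forebrain IL-34, and to 319 ± 7.40 and 255 ± 9.12 TPM in cerebellum (SD, n = 3). Nucleotide supply genes summed to 86.3 ± 7.77 and 65.6 ± 7.89 TPM in forebrain and to 68.7 ± 8.46 and 54.7 ± 4.40 TPM in cerebellum. Cyclin E and E2F genes summed to 44.3 ± 0.275 and 33.2 ± 2.19 TPM in forebrain and to 37.4 ± 0.801 and 29.5 ± 1.99 TPM in cerebellum. The IL-34 sums were therefore between 75.0 and 80.1% of the CSF-1 sums for these 3 roles in both regions. Polymerase and clamp loader genes kept 87.4% in forebrain and 96.2% in cerebellum, and methylation and chromatin genes 85.1 and 93.6%. With median-of-ratios scaling these last 2 sums turned in cerebellum, to 556 TPM under CSF-1 and 577 TPM under IL-34, and to 167 and 169 TPM. The polymerase and clamp loader sum includes Rfc2. Under CSF-1 and IL-34, Rfc2 averaged 92.9 and 73.2 TPM in forebrain and 89.3 and 121 TPM in cerebellum. Of Rfc2 TPM, 87.3% lay in transcripts under 1000 nt. In longer transcripts Rfc2 was lower under IL-34 in cerebellum, at 13.4 and 8.05 TPM. Over all 49 genes, the sum was 1357 ± 32.9 and 1133 ± 19.0 TPM in forebrain and 1293 ± 38.2 and 1147 ± 21.1 TPM in cerebellum.

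**Figure D3:**
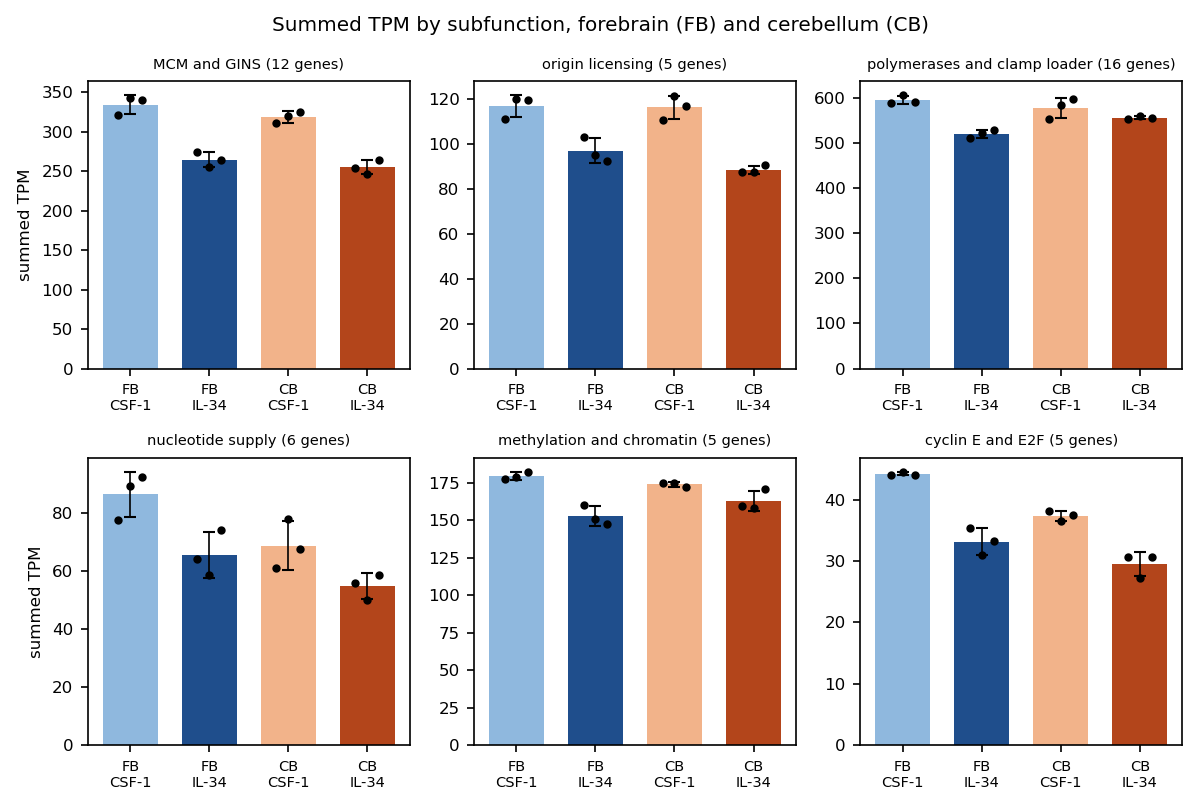
Summed TPM of the genes of each role; bars are means and error bars SD of 3 libraries, points are libraries, and axes start at 0. MCM and GINS, origin licensing, nucleotide supply, and cyclin E and E2F sums are lower under IL-34 in both regions. The polymerase and clamp loader sum lies closest between the ligands in cerebellum, where its member Rfc2 is higher under IL-34.

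For 10 pairs of partners in a complex or pathway, the ratio of TPM, which is per length, was compared between the ligands. Mcm6 stood at 4.94 ± 0.188 times Mcm5 in forebrain CSF-1 and 6.26 ± 0.210 times in forebrain IL-34, and at 4.98 ± 0.0353 and 6.48 ± 0.827 times in cerebellum. Rrm1 stood at 1.77 ± 0.105 times Rrm2 in forebrain CSF-1 and 3.27 ± 0.416 times in forebrain IL-34, and at 2.87 ± 0.501 and 4.40 ± 1.28 times in cerebellum. Dnmt1 over Uhrf1 was 3.84 ± 0.234 and 6.18 ± 0.464 in forebrain, and 5.36 ± 0.352 and 7.24 ± 0.676 in cerebellum. In these 3 pairs the mean ratio was higher under IL-34 in both regions. The same held for Chaf1b over Chaf1a, Pcna over Rfc4, Cdt1 over Cdc6 and Gins4 over Gins3, not always beyond the SD. The remaining pairs, given next, did not go 1 way in both regions. Mcm6 over Mcm7 went from 5.38 ± 0.304 to 5.94 ± 0.322 in forebrain and from 5.94 ± 0.907 to 5.49 ± 1.10 in cerebellum, and Pola2 over Pola1 from 3.17 ± 0.619 to 2.96 ± 0.447 and from 2.78 ± 0.410 to 4.09 ± 0.656. The ratio of Gmnn to Cdt1 went from 0.917 ± 0.123 to 1.01 ± 0.0751 in forebrain and from 0.817 ± 0.0901 to 0.743 ± 0.0838 in cerebellum (all SD, n = 3, with no test).

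The ligand comparison was then made within each region, whose libraries are separate. In forebrain 5 genes were lower under IL-34, Mcm4, Mcm5, Cdt1, Rrm2 and Uhrf1, and none was higher, against 0.773% of all genes called lower. In cerebellum 16 were lower and none higher, against 9.82% of all genes: Mcm2, Mcm4, Mcm5, Mcm6, Cdc45, Orc6, Cdt1, Gmnn, Prim1, Fen1, Rrm2, Dut, Uhrf1, Chaf1a, E2f1 and E2f8. The members' median differences were -0.34 in forebrain and -0.25 in cerebellum, against -0.04 and -0.10 over all genes tested. Counts of genes whose IL-34 libraries all lay below the CSF-1 libraries were 33 in forebrain (12.6% of all genes), 25 in cerebellum (27.9%) and 20 in both (6.35%). The forebrain count of 5 was 0 without forebrain IL-34 replicate 2 and 0 when only the forebrain libraries were fitted, 1 without forebrain CSF-1 replicate 2, 2 without forebrain CSF-1 replicate 3 or forebrain IL-34 replicate 3, 3 without forebrain IL-34 replicate 1, any cerebellum CSF-1 library or cerebellum IL-34 replicate 2, and 4 without the whole cerebellum IL-34 group. It was 19 in transcripts of 1000 nt or more, against 2.60% of all genes called lower there. The cerebellar count of 16 was 3 without cerebellum IL-34 replicate 2, and 5 and 8 without cerebellum CSF-1 replicates 1 and 2. It was 27 in transcripts of 1000 nt or more, against 21.1% of all genes called lower there, and 0 with the length floor covariate.

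For no member did the ligand difference itself differ between the regions at an adjusted p under 0.05 (limma interaction), against 0.145% of all genes called in either direction. An unadjusted p under 0.05 was found for 4 of 49 members and for 1505 of all 12419 genes tested. Both differences were negative for 43 of 49 members (87.8%), against 46.2% of all genes tested. Across genes, Pearson's r between the 2 differences was 0.45 for the 49 members and -0.02 for all 12419 genes tested, where genes are not independent replicates and share their libraries. Rrm2, E2f8, Mcm5, Cdc45 and Uhrf1 were far below 0 in both regions. Rfc2, Gins2 and Orc1 were negative in forebrain and positive in cerebellum, at -0.35 and 0.47, -0.34 and 0.33, and -0.20 and 0.22, none with an adjusted p under 0.05 in either region.

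**Figure D4:**
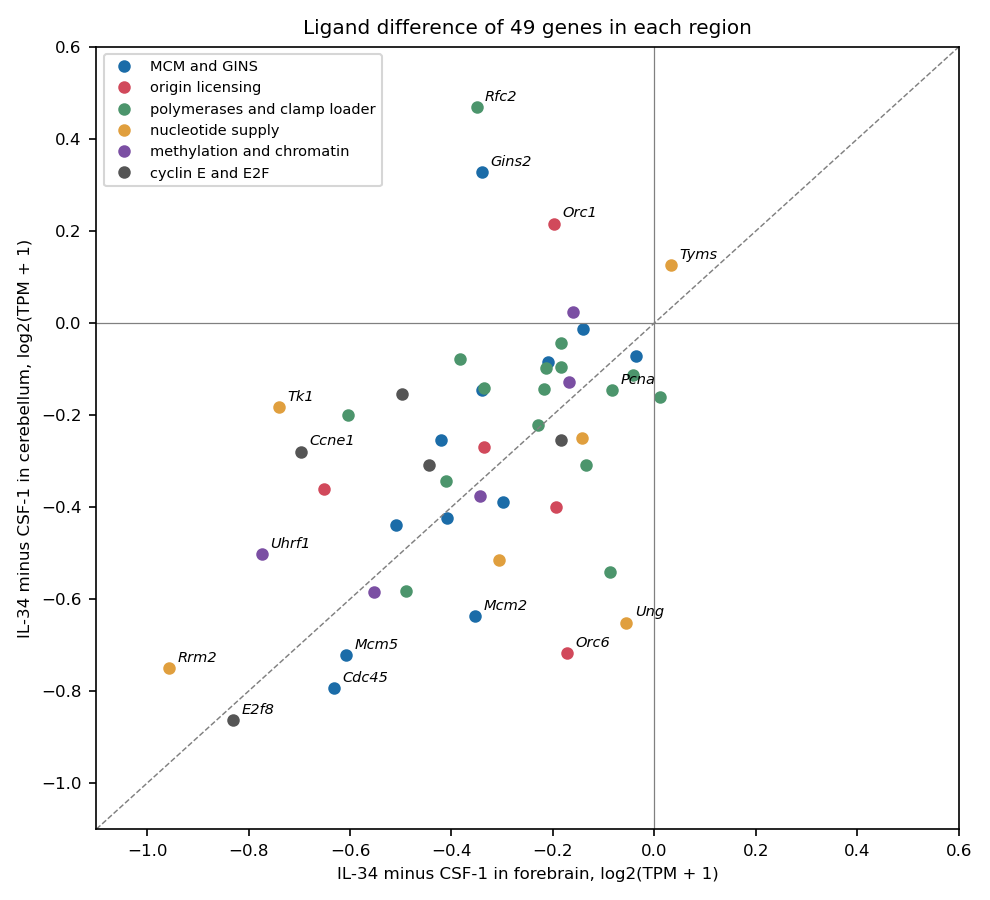
Difference of IL-34 minus CSF-1 on the log2(TPM + 1) scale in forebrain (horizontal) and cerebellum (vertical) for the 49 genes, coloured by role; the dashed line marks equal differences. Points below 0 on both axes number 43, and Gins2 and Rfc2 lie above 0 in cerebellum.

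The regions were then compared under each ligand. Under CSF-1, 3 of 49 were lower in cerebellum than in forebrain and none was higher, against 3.42 and 3.29% of all genes. These were Rrm2 (-0.83, adjusted p = 0.0155), Ccne1 (-0.75, adjusted p = 0.0434) and Ccne2 (-0.52, adjusted p = 0.0346), whose cerebellum CSF-1 libraries all lay below the forebrain CSF-1 libraries. Under IL-34, Orc6 (-0.79, adjusted p = 0.00559) and Rrm2 (-0.62, adjusted p = 0.035) were lower in cerebellum, against 8.22% of all genes. Gins2 (0.55, adjusted p = 0.0108), Rfc2 (0.74, adjusted p = 0.0406) and Cdt1 (0.23, adjusted p = 0.047) were higher, against 5.27%. The level of Rrm2 was thus highest in forebrain CSF-1, similar in forebrain IL-34 and cerebellum CSF-1, whose ranges of 8.67 to 10.7 and 10.1 to 11.5 TPM overlapped, and lowest in cerebellum IL-34. In transcripts of 1000 nt or more Gins2 did not pass and Rfc2 turned to -0.64. The number of members called was then 6 under CSF-1 and 11 under IL-34. Of all 11125 genes tested there, 701 (6.30%) were lower and 749 higher under CSF-1, and 1720 (15.5%) and 520 under IL-34. With length and GC trends also removed the number of members called was 11 and 10, and with the length floor covariate no member was called under IL-34. The share of all genes called in these settings is not given, so the counts show only how the calls varied. The CSF-1 count of 3 was 0 without forebrain CSF-1 replicate 3 or cerebellum CSF-1 replicate 2, and 1 without forebrain CSF-1 replicate 2 or cerebellum CSF-1 replicate 1. The IL-34 count of 5 was 2 without forebrain IL-34 replicate 2 or 3 or cerebellum IL-34 replicate 1 or 2, and 3 without cerebellum CSF-1 replicate 2.

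Genes of mitosis were compared in the same contrasts. Of 67 tested G2/M and mitosis genes, 15 (22.4%) were lower under IL-34 for the mean ligand difference and none higher (median -0.24), against 10.7% of all genes called lower, with Gtse1 (-0.76, adjusted p = 0.000461), Tubb4b (-0.42, adjusted p = 0.000905) and Incenp (-0.35, adjusted p = 0.00186) first. Between regions, 22 of the 67 were lower in cerebellum under CSF-1 and 22 under IL-34, against 3.42 and 8.22% of all genes, with medians of -0.49 and -0.38. The replication genes had 3 and 2 lower of 49 in the same comparisons, with medians of -0.16 and -0.09, and the medians over all genes were 0.03 and -0.02. In transcripts of 1000 nt or more, 33 of 63 mitosis genes (52.4%) were lower for the mean ligand difference, against 21.4% of all genes. Between regions there, 36 and 39 of the 63 were lower under CSF-1 and IL-34, against 6.30 and 15.5% of all genes. The ligand and region comparisons share libraries, and the difference between the lists was not tested.

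Lists of the remaining genes of replication were examined next, against the 10.7% of all genes called lower and 2.73% called higher. Of 38 other replication fork and origin genes tested, 6 (15.8%) were lower for the mean ligand difference and none higher (median -0.15), among them the MCM binding protein Mcmbp (-0.28, adjusted p = 0.0243), the polymerase delta subunit Pold2 (-0.43, adjusted p = 0.0295) and the FACT subunit Ssrp1 (-0.21, adjusted p = 0.0348). Of 37 other nucleotide synthesis genes, 16 (43.2%) were lower and none higher (median -0.13), led by the purine enzyme Atic (-0.43, adjusted p = 0.000905), the CTP synthase Ctps (-0.58, adjusted p = 0.00125) and the IMP dehydrogenase Impdh1 (-0.33, adjusted p = 0.0034). Of 17 other histone supply and chromatin assembly genes, 4 (23.5%) were lower and none higher (median -0.19), led by the histone chaperones Asf1b (-0.46, adjusted p = 0.00787) and Hira (-0.52, adjusted p = 0.0114) and the histone acetyltransferase Hat1 (-0.19, adjusted p = 0.0183). Of 20 other E2F and pocket protein genes, 4 (20%) were lower and 1 higher (median -0.13). These included the Cdk inhibitor Cdkn1a (-0.22, adjusted p = 0.00334) and E2f4 (-0.14, adjusted p = 0.0261), both lower, and Lin37 (0.28, adjusted p = 0.0348), higher. In transcripts of 1000 nt or more Lin37 was at -0.13 and was not called. There the 4 lists had 12 of 36, 16 of 36, 9 of 17 and 5 of 19 genes lower, in the order given, against 21.4% of all genes.

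**Figure D5:**
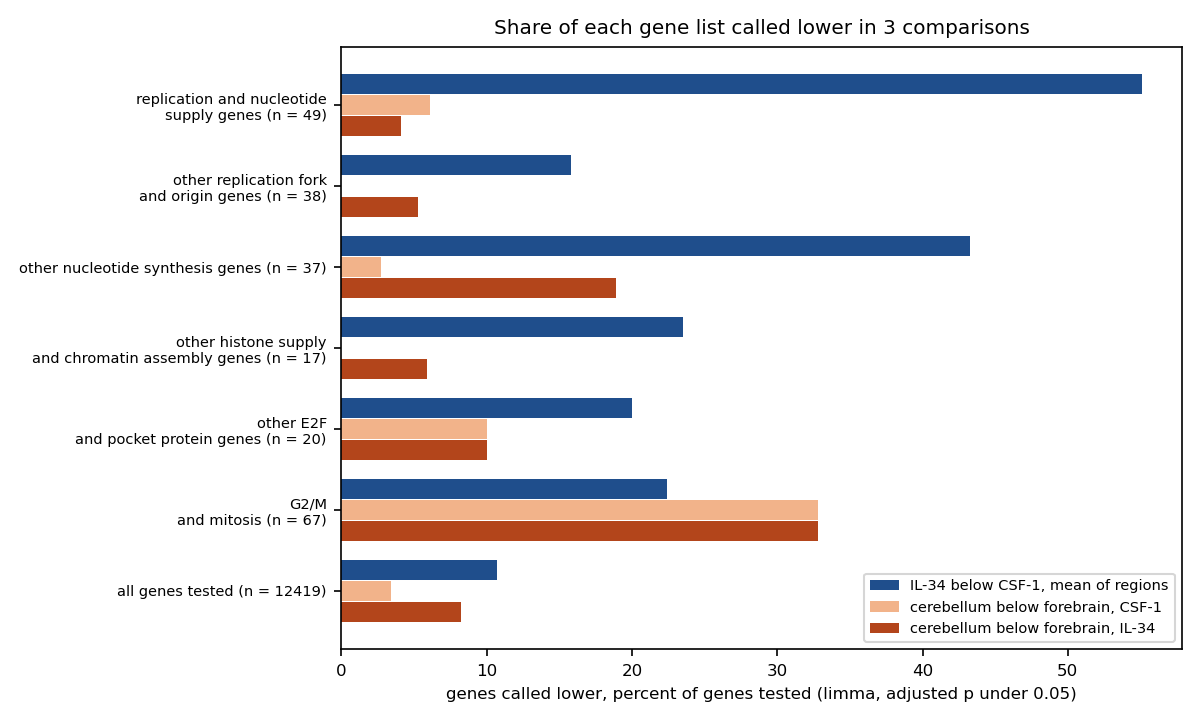
Percent of the tested genes of each list called lower (horizontal axis from 0; limma, adjusted p under 0.05) for the mean ligand difference and for cerebellum below forebrain under each ligand; n is the number of genes tested. The replication and nucleotide supply genes reach 55.1% for the ligand and 6.12 and 4.08% for the regions, and the mitosis genes 22.4% and 32.8% under each ligand. In transcripts of 1000 nt or more, not drawn, 52.4% of mitosis genes and 21.4% of all genes were called lower for the ligand.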

How the data were processed

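RNA of 12 libraries of cultured mouse microglia, 3 per group, was made into cDNA with a SMART-Seq v4 kit for low input, per the labels' protocols. The authors deposited TPM of each transcript and no counts, so depth is unknown and no floor is given. TPM is scaled to a fixed total, so a rise in some transcripts lowers others. Quantification used kallisto 0.43.0 on GRCm38, per the submitters' processing notes. The annotation release and filters were not stated. TPM was summed per gene, and transcript lengths and exons came from GENCODE M21, in which 98.6% of transcripts were found. No pair of libraries held identical values.

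Values of log2(TPM + 1) were tested with limma 3.58.1 (R 4.3.3), a scale that understates changes of low genes, with 4 group means, a variance trend and 8 residual degrees of freedom. Genes needed at least 1 TPM in at least 3 libraries, p-values were two-sided and Benjamini-Hochberg adjusted over all 12419 genes for each of 6 contrasts, and the threshold was 0.05. The script was tested on simulated data. Tables and motif counts were made in Python 3.11.15. Motif intervals are exact Clopper-Pearson at 95%.

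The members and the other lists were chosen with earlier results of these data known. Library values are given for up to 4 called members per role in order of p, for members called between regions, and for Pcna, named for its level. From other lists the 3 called genes with the smallest p are named. Under other observations, further called genes of these lists are named by pathway or by direction, chosen after their values were seen. The alternatives covered pseudocount, filter, scaling, libraries in the fit, the replicate number as a block, library weights, transcript length and leaving out each library. Leaving the cerebellum IL-34 group out of the fit was chosen after seeing the data.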

Additional observations from a re-analysis of the deposited data

How the results depend on the processing

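All tests rest on 3 libraries a group, the depth behind the TPM is unknown, and the cerebellum IL-34 libraries differ from the others in short transcripts. For the mean ligand difference, 11 genes (Mcm2, Mcm4, Mcm5, Mcm6, Cdt1, Rfc4, Prim1, Rrm2, Uhrf1, Chaf1a and E2f8) passed in every alternative in which they were tested and in all 12 fits that left out 1 library, and every called member kept its direction there. The count of 27 members was 17 without a filter on low values, 16 with median-of-ratios scaling, 17 with quantile normalization, 14 with the length floor covariate and 15 to 26 when 1 library was left out. The forebrain count of 5 was 2 without a filter, 0 in only the groups compared, 15 with library weights, 19 in transcripts of 1000 nt or more, 21 with their length and GC trends also removed, and 0 to 6 when 1 library was left out. The cerebellar count of 16 was 9 without a filter, 10 with median-of-ratios scaling (9 lower and Gins2 higher), 9 in only the groups compared, 27 in transcripts of 1000 nt or more, 0 with the length floor covariate and 3 to 16 when 1 library was left out. For the interaction, leaving out 1 library gave 0 to 1 members. Between regions under CSF-1, the count of 3 was 1 without a filter, 1 in only the groups compared, 6 in transcripts of 1000 nt or more, 11 with trends removed and 0 to 3 when 1 library was left out. Under IL-34, the count of 5 was 2 without a filter, 2 in only the groups compared, 9 with library weights, 11 in transcripts of 1000 nt or more, 10 with trends removed, 0 with the length floor covariate and 2 to 5 when 1 library was left out. A fit of only the groups compared gives no value for the mean ligand difference or the interaction. With 1 library left out, 925 to 2081 of all genes were called for the mean, 29 to 163 in forebrain and 299 to 1769 in cerebellum. Between regions it was 413 to 918 under CSF-1 and 838 to 1772 under IL-34. For the other alternatives, here and above, shares of all genes are given only for transcripts of 1000 nt or more. The remaining counts cannot tell a change in these genes from a change in calls over all genes. Shares of all genes called also changed in transcripts of 1000 nt or more. There, 2.60% were lower in forebrain and 21.1% in cerebellum for the ligand, and 6.30 and 15.5% between regions under CSF-1 and IL-34. The difference of Rfc2 between regions under IL-34 reversed to -0.64 in transcripts of 1000 nt or more, -0.65 with trends removed and -0.0021 with the length floor covariate. The cause of these changes was not tested. Under median-of-ratios scaling the MCM and GINS sums were 306 and 265 TPM in cerebellum CSF-1 and IL-34, the origin licensing sum was 91.8 TPM in cerebellum IL-34, and the polymerase and clamp loader sums were 585, 529, 556 and 577 TPM in forebrain CSF-1, forebrain IL-34, cerebellum CSF-1 and cerebellum IL-34. The methylation and chromatin sums were then 177 and 167 TPM and the cyclin E and E2F sums 43.5 and 35.9 TPM in forebrain and cerebellum CSF-1. In the 150 bases before the start, E2F motifs were found for 37.5% of members, against 11.7% of tested genes. With the replicate number as a block, 22 members were called for the mean ligand difference, 3 in forebrain, 12 in cerebellum, 0 for the interaction, 3 under CSF-1 and 5 under IL-34. Deviations of same-numbered libraries correlated at -0.42 to 0.13 over 6 pairs, and 0 of the CSF-1 libraries correlated best with their own number. With 3 libraries a group, this cannot tell whether same-numbered libraries come from 1 culture, and the titles give only a number.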

Other observations

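The nucleotide synthesis genes outside the 49 members included the whole path from phosphoribosyl pyrophosphate to IMP, the first purine nucleotide. All 6 genes listed for it were lower under IL-34 for the mean ligand difference (limma, adjusted p under 0.05): Ppat (-0.34), Gart (-0.23), Pfas (-0.32), Paics (-0.17), Adsl (-0.16) and Atic (-0.43). Of the steps that lead from IMP onwards, Impdh1 (-0.33), Impdh2 (-0.38) and Adss (-0.16) were also lower, whereas Gmps and Adssl1 were not called. The multifunctional pyrimidine enzyme Cad (-0.39), the CTP synthase Ctps (-0.58), the folate enzymes Mthfd1 (-0.33) and Shmt2 (-0.23), and Prps1 (-0.27), which makes phosphoribosyl pyrophosphate, were lower as well, while thymidylate synthase Tyms was at 0.08 (adjusted p = 0.794). The listed pyrimidine genes Dhodh, Umps and Ctps2, the folate genes Shmt1 and Mthfd2, and Prps2 were not called. These genes were grouped after their values were seen. Of the 37 nucleotide synthesis genes outside the members, 16 were called lower for the mean ligand difference, against 10.7% of all genes, and 21 were not called. Within regions, none of the 37 was called in forebrain, against 0.773% of all genes called lower. In cerebellum, where the IL-34 libraries stood apart in short transcripts, 14 were called lower and 1 higher, against 9.82% and 3.00% of all genes. In transcripts of 1000 nt or more, 4 of 36 were called lower in forebrain and 18 in cerebellum, against 2.60 and 21.1% of all genes, and all 6 genes from Ppat to Atic were called lower for the mean, from -0.16 (Adsl) to -0.43 (Atic).

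In cerebellum, 4 genes of the other replication and mitosis lists were called higher under IL-34, against 3.00% of all genes tested. The 4 were the nucleoside diphosphate kinase Nme1 (1.01, adjusted p = 0.0489), the replication protein A subunit Rpa3 (0.96, adjusted p = 0.0451), Pttg1 (0.55, adjusted p = 0.0292), which encodes securin, and Lin37 (0.44, adjusted p = 0.0268). They were 1 each of 37 nucleotide synthesis, 38 fork and origin, 67 mitosis, and 20 E2F and pocket protein genes tested. Of 17 histone supply and chromatin assembly genes, 0 were called higher. In transcripts of 1000 nt or more Nme1 was at 0.00027, Pttg1 at -0.07 and Lin37 at -0.32, none of them called, and Rpa3 was not tested.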
